A study of Mus musculus with 12 samples.

Results

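The comparison described here asks how the RNA on the ribosomes of mouse sensory neurons differed when a second virus, AAV-e5'UTR, accompanied AAV-shGpr151, a virus that carries a short hairpin against Gpr151. It rests on 6 of the study's 12 libraries, chosen by their names in the count table: IP shGpr151, columns 1 to 3, and IP shGpr151 with e5'UTR, columns 1 to 3. The mice had the genotype RPL22HA+/+;Advillin-Cre+ in all groups, and the labels give the cell type as adult dorsal root ganglion (DRG) neuron. The first group received AAV-shGpr151 and the second AAV-shGpr151 and AAV-e5'UTR, called e5UTR from here on. Both groups therefore carry the hairpin, and no group without it was analysed here. What the e5'UTR insert is, the number of animals behind a library, their age and sex, and the viral dose and time were not found in the labels. The series' design text speaks of neurons cultured after a sciatic nerve injury that primes them for regrowth, and the extraction protocol of freshly collected ganglia, so which of these was lysed is not settled. Per the labels' protocols, libraries were made with a nanopore cDNA-PCR barcoding kit.

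RiboTag mice carry a version of the ribosomal protein gene Rpl22 that gains an HA tag where Cre recombinase is active, and an antibody against HA then pulls down the tagged ribosomes with the RNA on them. Cre under the Advillin promoter is active in most sensory neurons of the DRG, which carry touch, position, temperature and pain signals and can regrow their peripheral axon after injury. After such an injury these neurons switch on transcription factors such as Atf3, Jun and Sox11 and a set of growth genes. A level in the pull-down (IP) depends on how much of an RNA a neuron holds and on how much of it is on ribosomes, and in bulk samples fewer cells of a type and less RNA per cell cannot be told apart.

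Within a group the 3 columns differed by little more than repeated draws from 1 pool of reads would. Totals were 1381590, 1381220 and 1382261 counts in IP shGpr151 and 1516571, 1517685 and 1514948 in IP e5UTR, a range of 0.0753% and 0.181% of the mean. Between columns of a group, chi-square of the median gene was 1.09 and 1.12 times the value from counting alone, and 2.55 times between the 2 IP pools. The last value compares sums of 3 columns, whose larger counts raise chi-square for a like relative difference, so it is not on the same scale. Because columns of a group differed so little, the 3 columns were counted as 1 replicate, with pools of 4145071 and 4549204 counts. The tests below use the columns, so they compare the reads of these 2 pools and not the conditions, no difference has a replicate check, and the p-values measure only the spread between columns, which may be technical. Levels are counts per 1000000 (CPM) of the scaled library, ratios are e5UTR over shGpr151 with exact binomial 95% intervals that cover counting error only, and a count of 0 allows up to 0.734 CPM in the pool of IP shGpr151 and 0.676 CPM in that of IP e5UTR. Differences are on the log2 scale with the standard error (SE) of edgeR's quasi-likelihood fit, and a gene is called where its Benjamini-Hochberg adjusted p is under 0.05.

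Gpr151, the hairpin's target, encodes an orphan G protein-coupled receptor. It stood at 27.2, 27.2 and 24.9 CPM in the shGpr151 columns and at 23, 29.7 and 33.8 CPM in the e5UTR columns, from pools of 108 and 128 counts. The columns overlapped, the ratio was 1.09 (0.838 to 1.42) and the log2 difference 0.12 ± 0.19 (SE, adjusted p = 0.75), so the interval leaves room for a difference of up to 1.42-fold. With the hairpin in both groups, this does not check the knockdown. Rpl22, the tagged gene, had 432, 473 and 452 CPM with shGpr151 and 507, 515 and 531 CPM with e5UTR. It was called higher (log2 0.19 ± 0.05, adjusted p = 0.0040). Avil, whose promoter drives the Cre, had 132 and 127 CPM in the pools and was not called (adjusted p = 0.81).

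Pan-neuronal markers were higher in both pull-downs than in total RNA, but not all markers of other ganglion cells were lower. The 30 pan-neuronal genes summed to 17040 to 17170 CPM in the shGpr151 columns and 17530 to 17810 CPM in the e5UTR columns, against 5253 and 5287 CPM in the input pools of total RNA. Hemoglobin RNAs, which mark red blood cells, were at or near 0: Hbb-bt had 0 counts in both IP pools, Hbb-bs 0 and 1, Hba-a1 3 and 1, and Hba-a2 10 and 17, where each input pool held over 500 counts of each gene. RNA of other ganglion cells was present in both IP pools. Schwann cell markers summed to 936 to 985 CPM with shGpr151 and 914 to 957 CPM with e5UTR, macrophage and MHC class II markers to 263 to 307 and 283 to 286 CPM, and fibroblast markers to 804 to 852 and 901 to 1016 CPM. In the input pools Schwann cell markers summed to 1343 and 1366 CPM and fibroblast markers to 1380 and 1370 CPM, above the IP levels. Macrophage and MHC class II markers had 245 and 252 CPM in input, no more than in IP. The satellite glia list reached 4250 to 4291 and 4821 to 4917 CPM, against 4246 and 4034 CPM in input. Most of it came from Dbi, which neurons can express too.

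With e5UTR, many RNAs differed by small factors. Of 8023 genes tested, 962 were called (12%), 433 higher (5.40%) and 529 lower (6.59%) with e5UTR, and 1934 had an unadjusted p under 0.05. The median called difference was 1.296-fold, 1.209-fold among higher and 1.359-fold among lower genes. Differences of at least 1.5-fold were called in 263 genes (3.28%), 86 higher (1.07%) and 177 lower (2.21%), and of at least 2-fold in 87. Calls followed depth: among genes with at least 1000 counts in both IP pools together 25.1% were higher and 24.1% lower, and among the rest 2.22% and 3.76%. These 2 shares for abundant genes are set below beside gene groups made up of abundant mRNAs. They are not matched to depth above 1000 counts, and groups such as the ribosomal protein genes lie far above it on average. Whether a group exceeds genes of its own depth was thus not tested. If pools made from separate animals were assumed to vary by a biological coefficient of variation of 10%, instead of the 1.842% fitted between columns, 36 genes would be called, 10 higher and 26 lower.

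**Figure D1:**
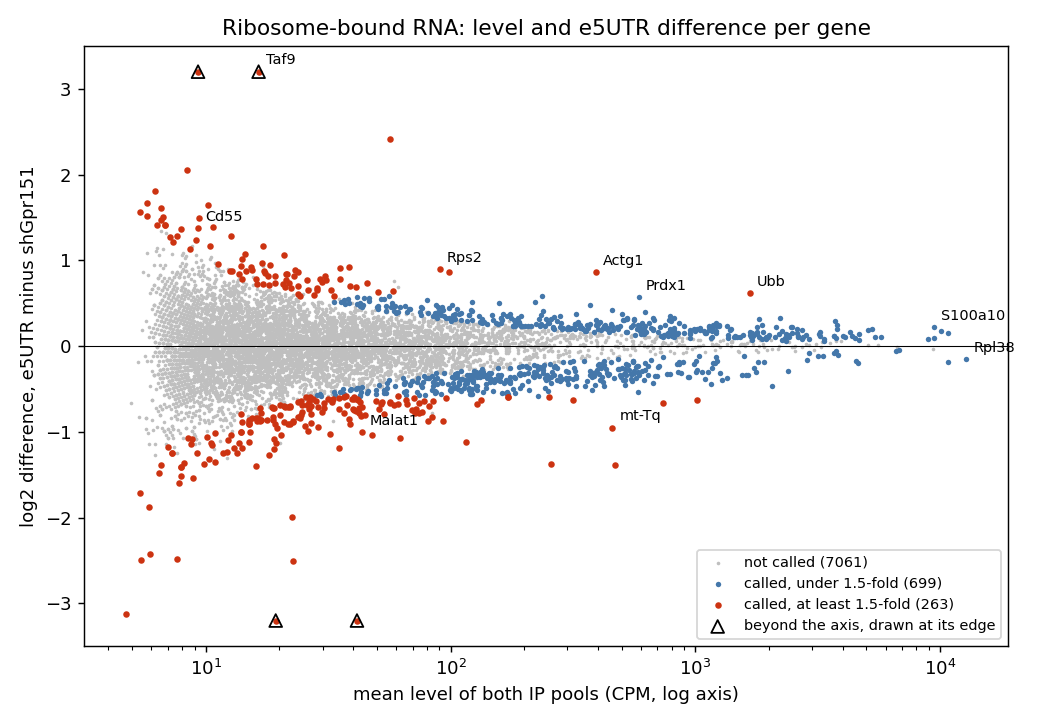
Log2 difference between IP e5UTR and IP shGpr151 (vertical axis) against the mean level in the IP pools in CPM (horizontal axis, log scale), 1 point per tested gene. Called genes are blue under 1.5-fold and red from 1.5-fold (263 genes), grey genes were not called, and triangles mark values beyond the axis, drawn at its edge. Called genes at high levels sit close to 0, and differences beyond 1.5-fold are mostly at low levels.

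Lower calls were frequent among gene IDs that carry no symbol or a pseudogene, predicted-gene or clone name. Of 558 tested IDs with no symbol 4 were higher and 165 lower (29.6%), with a median log2 of −0.345, and of 483 pseudogene, predicted or clone names 16 were higher and 82 lower (17%, median −0.188). Among the 6982 other symbols 413 were higher and 282 lower (median 0.0381). IDs with no symbol held 7.30% of the counts in IP shGpr151 (95% interval 7.27 to 7.32) and 5.90% (5.88 to 5.93) in IP e5UTR, against 17.6% and 17.7% in the input pools. The share of these IDs was thus lower with e5UTR in IP, and higher in total RNA than in either pull-down. With all such IDs removed and the scaling recomputed, a fit chosen after seeing the data and called the plain-symbol fit below, 315 of the 6982 genes were higher and 375 lower, so for genes of ordinary name the balance of small differences depends on these IDs. Where a list's counts differ in that fit, both are given.

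The RNAs with the smallest p among higher genes were led by Ubb, a gene for polyubiquitin, the precursor of the protein tag for degradation. Ubb stood at 1291, 1337 and 1316 CPM with shGpr151 and at 2037, 2012 and 2018 CPM with e5UTR. All e5UTR columns lay far above all shGpr151 columns, and the ratio was 1.54 (1.49 to 1.59, log2 0.62 ± 0.02, adjusted p = 1.3e-15). Ubb consists of near-identical repeats, so its count is uncertain where the authors' counting could divide reads.

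S100a10, the partner of annexin A2 at the cell membrane, had 8757, 8806 and 8563 CPM with shGpr151 and 10190, 10160 and 10200 CPM with e5UTR. It was called higher by a ratio of 1.17 (1.15 to 1.19, adjusted p = 2.2e-11). Actg1, cytoplasmic gamma-actin, rose from 291, 260 and 285 CPM to 439, 539 and 540 CPM. The columns did not overlap, and the ratio of 1.81 (1.69 to 1.95, log2 0.86 ± 0.07, adjusted p = 5.6e-10) was among the few that were also called at an assumed variation of 10% (adjusted p = 0.022). Its near-identical paralog Actb, looked up after the value of Actg1 was seen, had 6206 and 6495 counts and was not called (log2 −0.05 ± 0.03, adjusted p = 0.26, and called lower in the plain-symbol fit with −0.09 and 0.039). Prdx1, a peroxiredoxin that removes hydrogen peroxide, had 496, 446 and 475 CPM with shGpr151 and 719, 709 and 678 CPM with e5UTR. All e5UTR columns were above all shGpr151 columns, a ratio of 1.49 (1.40 to 1.57, log2 0.57 ± 0.04, adjusted p = 3.6e-10). Dbi, an acyl-CoA-binding protein, rose by a ratio of 1.19 (1.16 to 1.22), from 3437 to 3495 CPM to 4085 to 4168 CPM. It was also the sole one of these 15 genes called in input, where it was lower with e5UTR (log2 −0.18, adjusted p = 0.00011).

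The other genes of this set were ribosomal or respiratory. The ribosomal genes were Rps26, Rps27a, Fau and Rpl10, the respiratory genes Ndufa4, Cox6b1 and Cox4i1, and the rest Lgals1 (galectin-1, a lectin known from regrowing axons), Taf9 and the predicted gene Gm17494. Outside Taf9, which overlaps a neighbour and is treated below, their ratios lay between 1.12 and 1.27. None of these 15 lost its call without any 1 column.

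**Figure D2:**
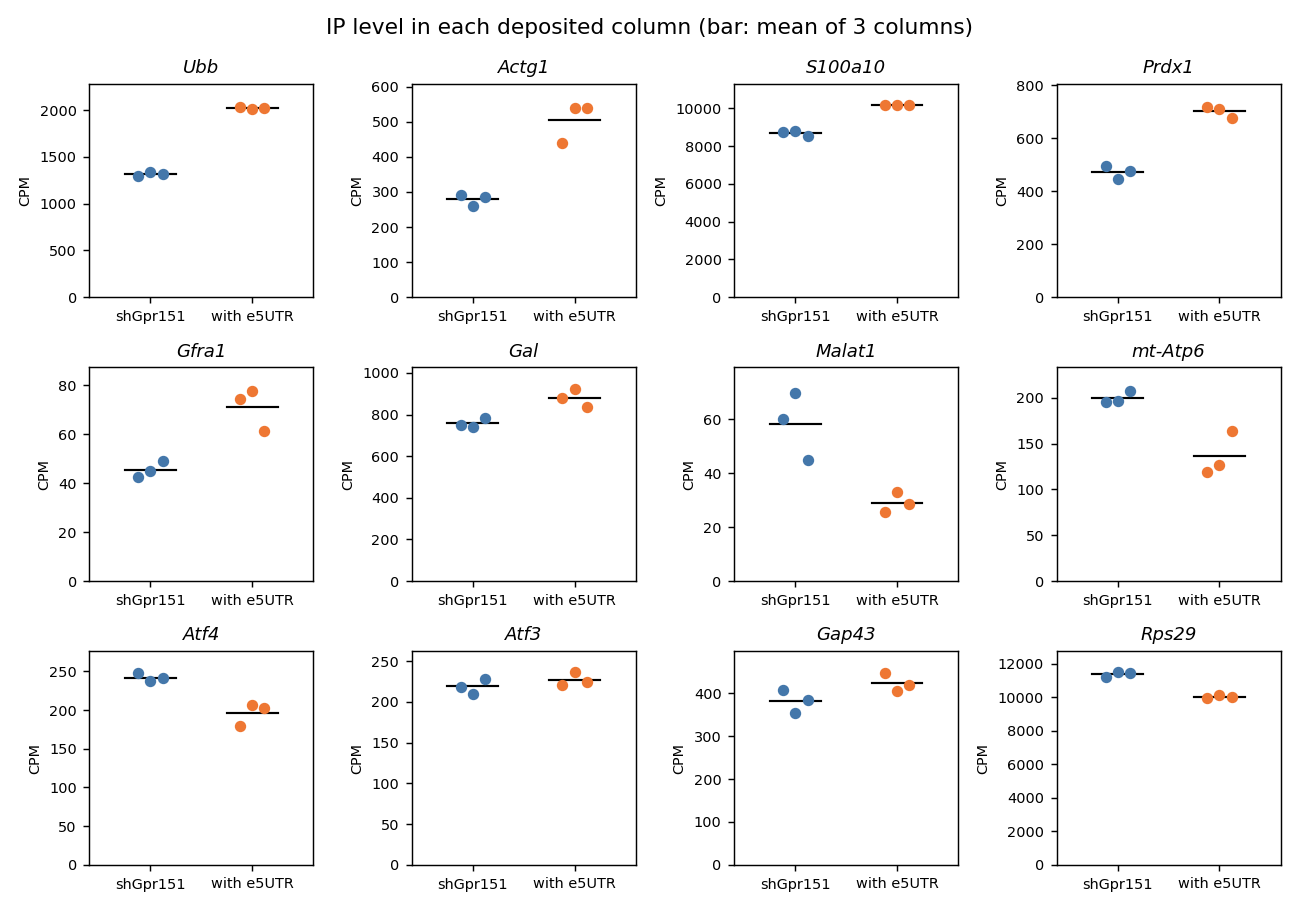
CPM of 12 genes in each of the 6 IP columns, shGpr151 and e5UTR side by side, 1 panel per gene with its own axis from 0, and a bar at the mean of the 3 columns. Ubb, Actg1, Prdx1, S100a10, Gfra1 and Gal are higher in every e5UTR column, Malat1, mt-Atp6, Atf4 and Rps29 are lower in every one, and the columns of Atf3 and Gap43 overlap.

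Among lower genes with the smallest p, mt-Tq, the mitochondrial tRNA for glutamine, went from 598, 606 and 610 CPM to 333, 306 and 300 CPM. Every e5UTR column was far below every shGpr151 column, with a ratio of 0.518 (0.484 to 0.553, log2 −0.95 ± 0.05, adjusted p = 1.4e-13), and the call held at an assumed variation of 10% (adjusted p = 0.0028). A second mitochondrial tRNA, mt-Ts1 for serine, fell from 673, 698 and 698 CPM to 498, 458 and 473 CPM. By library total mt-Ts1 was higher in IP than in input (568 and 270 CPM), while mt-Tq was lower (444 and 2406 CPM). The most abundant lower genes were ribosomal: Rps29 had 11240, 11520 and 11490 CPM with shGpr151 and 9947, 10120 and 10030 CPM with e5UTR (ratio 0.879, 0.867 to 0.890), and Rpl38 had 13380, 13500 and 13430 CPM and 12020, 12180 and 12160 CPM (0.902, 0.891 to 0.913). Neither gene's columns overlapped between groups. Atp5k, a small subunit of the mitochondrial ATP synthase, had a ratio of 0.884 (0.866 to 0.901).

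Several lower genes of this set belong to RNAs that were far more abundant in input. These were Brd8 (a bromodomain protein, ratio 0.789), Ttf1 (a termination factor of ribosomal DNA transcription, 0.739), Zfp410 (a zinc finger factor, 0.773), Eapp (an E2F-associated protein, 0.760), Nlrc3 (a NOD-like receptor, 0.813), Unc13d (a granule exocytosis factor, 0.789), Nanog (a pluripotency factor, 0.766) and Gfod2 (0.70). The first 7 had 10559 to 27337 counts in an input pool and Gfod2 6722 and 6631, in libraries of fewer counts than the IP libraries. All 8 differed from their own input difference by the interaction test described below. The labels do not say how reads over repeats or overlapping genes were divided, and the identity of these reads is uncertain. Brd8 overlaps Kif20a in the gene model used for neighbours. None of the 15 genes lost its call without any 1 column.

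Large differences were few and mostly in RNAs of low abundance. Among called genes with at least 100 counts in the higher pool, the largest increases outside the pairs taken up below were in Brip1os (8.07, 8.81 and 14.7 CPM to 24.3, 24.3 and 22.3 CPM), an antisense transcript that overlaps Ints2 and Med13, and Ube2q1 (13.9, 13.9 and 12.5 CPM to 24.3, 33.8 and 26.4 CPM), an enzyme of ubiquitin transfer. Their ratios were 2.25 (1.56 to 3.28, adjusted p = 0.0018) and 2.09 (1.51 to 2.93, adjusted p = 0.0012), and neither gene's columns overlapped. Smim20, which helps assemble cytochrome c oxidase, had a ratio of 1.88 (1.47 to 2.41, adjusted p = 0.0017) and the clone AL731706.1 of 1.90 (1.5 to 2.41, adjusted p = 0.00040). The calls of the remaining genes depended on single columns. Arl2bp was lost without column 3 of shGpr151 or 2 of e5UTR (adjusted p up to 0.081), Spin1 without column 2 of either group (up to 0.062), Aacs without column 1 of either group (up to 0.067), Rpl36-ps12 without e5UTR column 1 (0.054), Senp2 without column 1 or 3 of shGpr151 or 1 of e5UTR (up to 0.15), and Nubp2 without column 2 or 3 of either group (up to 0.22).

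Of the 15 largest decreases, 6 were gene IDs with no symbol. ENSMUSG00000123637 fell from 39.6, 28.6 and 46.2 CPM to 0, 0 and 1.35 CPM, a ratio of 0.0118 (0.00142 to 0.0433, adjusted p = 3.5e-10), and had 0 counts in both input pools. ENSMUSG00000121644 fell from 664, 547 and 829 CPM to 253, 219 and 311 CPM (0.384, 0.358 to 0.411, adjusted p = 3.5e-10) and ENSMUSG00000138124 from 440, 347 and 330 CPM to 195, 111 and 124 CPM (0.386, 0.351 to 0.423, adjusted p = 5.8e-09). What these transcripts are is not known from the files. Of the named genes in this set, Tubgcp5, a gamma-tubulin ring component, had a ratio of 0.435 (0.305 to 0.612, adjusted p = 0.0023) and Ddx23, a helicase of the spliceosome, of 0.485 (0.348 to 0.670, adjusted p = 0.0025). Both were lower in every e5UTR column, and neither lost its call without any 1 column. The calls of Gm21982 (without column 1 of shGpr151 or 1 or 3 of e5UTR, adjusted p up to 0.23), Gm42882 (without column 2 or 3 of either group, up to 0.20), Gm9844 (without shGpr151 column 3, 0.11) and 1810009A15Rik (without column 2 of either group, up to 0.16) did.

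Of the injury transcription factors only Atf4 was called. The log2 differences of the list ran from −0.38 to 0.71, and 4 of its 23 tested members had at least 1000 counts. Most of them thus lay at depths where calls were rare, and a missing call does not show an equal level. Of 23 tested, 0 were called higher by edgeR or DESeq2 (1 at an unadjusted p under 0.05) and 1 lower, with a median log2 of 0.05 beside 0.0068 over all genes tested. Atf3 had 219, 210 and 228 CPM with shGpr151 and 220, 237 and 224 CPM with e5UTR, a ratio of 1.04 (0.946 to 1.14, adjusted p = 0.70). Jun had a ratio of 1.05 (0.932 to 1.18, adjusted p = 0.68) and Sox11, on pools of 212 and 254 counts, of 1.1 (0.915 to 1.33, adjusted p = 0.57). The columns of all 3 overlapped, and the intervals leave room for differences of up to 1.14-fold, 1.18-fold and 1.33-fold. Atf4, which is also the central factor of the integrated stress response, fell from 247, 237 and 241 CPM to 179, 206 and 202 CPM, with no overlap (ratio 0.809, 0.737 to 0.887, log2 −0.31 ± 0.07, adjusted p = 0.0030).

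The growth genes that these factors are known to accompany had more calls, but also more abundant members, so the lists cannot be compared by their counts. Of 52 tested regeneration effectors 11 were called higher and 0 lower, with a median log2 of 0.13, and 10 were higher and 2 lower in the plain-symbol fit. All but 1 of the 11 were among the 25 members with at least 1000 counts, so 10 of 25 stand beside the 25.1% of all such genes called higher. Gfra1, the receptor subunit that binds GDNF, had 42.6, 44.8 and 49.2 CPM with shGpr151 and 74.3, 77.6 and 61.5 CPM with e5UTR, and was the sole member past 1.5-fold (ratio 1.56, 1.30 to 1.88, adjusted p = 0.0013). Lgals1 had 10170, 10240 and 10190 CPM against 11320, 11400 and 11420 CPM (ratio 1.12, 1.1 to 1.13), Uchl1, a ubiquitin hydrolase of neurons, a ratio of 1.1 (1.08 to 1.12), and Stmn2, a regulator of axonal microtubules, of 1.1 (1.07 to 1.12). In all 4 genes every e5UTR column lay above every shGpr151 column. Tnfrsf12a, a receptor that rises after nerve injury, had 1008 and 1400 counts (ratio 1.28, 1.18 to 1.39, adjusted p = 0.00018), Anxa2 a ratio of 1.14 (1.09 to 1.18, adjusted p = 0.00016) and Stmn1 of 1.12 (1.07 to 1.18, adjusted p = 0.0020). Timp1 and Tubb2b, which lost their calls without 4 of the 6 columns (adjusted p up to 0.15), complete the 11 with Gal and Npy. Gap43, the classical growth cone protein, was not called, with 407, 354 and 384 CPM against 448, 406 and 419 CPM (ratio 1.11, 1.04 to 1.19, adjusted p = 0.074). Sprr1a, another gene of regrowing axons, stood slightly lower, at 554, 554 and 574 CPM against 511, 516 and 540 CPM (ratio 0.932, 0.879 to 0.987, adjusted p = 0.12), and was called lower in the plain-symbol fit (log2 −0.14, adjusted p = 0.031).

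Neuropeptide genes had calls in both directions. Of 23 tested genes for peptides and their processing 4 were called higher and 2 lower. Of the 11 members with at least 1000 counts 3 were higher and 2 lower, near the 25.1% and 24.1% of all such genes. Gal, the injury-induced peptide galanin, had 751, 742 and 784 CPM with shGpr151 and 882, 924 and 838 CPM with e5UTR (ratio 1.16, 1.11 to 1.22, adjusted p = 0.00019). Npy, neuropeptide Y, rose by a ratio of 1.15 (1.1 to 1.2, adjusted p = 2.3e-05) and Calca, the precursor of CGRP in peptidergic pain neurons, by 1.16 (1.1 to 1.23, adjusted p = 0.0010). Pam, the enzyme that amidates such peptides, had 21.3, 25 and 20.5 CPM against 37.8, 33.1 and 41.2 CPM, a ratio of 1.68 (1.29 to 2.19, adjusted p = 0.0057). The columns of these 4 genes did not overlap. The lower genes were granin-like proteins of secretory granules: Pcsk1n had 1445 counts with shGpr151 and 1282 with e5UTR (ratio 0.817, 0.757 to 0.881, adjusted p = 0.00083) and Vgf 2402 and 2312 (0.886, 0.836 to 0.938, adjusted p = 0.015). The call of Vgf was lost without column 2 of shGpr151 or 1 or 2 of e5UTR (adjusted p up to 0.16).

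A minority of the genes that define sensory neurons was called. Log2 differences ran from −0.53 to 0.38 in pan-neuronal genes, −0.45 to 1.38 in nociceptor genes and −1.135 to 0.48 in genes of touch and position neurons. Of the last 2 lists 4 of 17 and 3 of 10 members had at least 1000 counts, so a missing call does not show an equal level. Of 30 pan-neuronal genes 4 were higher and 1 lower (median log2 −0.02), and 3 and 3 in the plain-symbol fit, where Tubb3 (log2 −0.07, adjusted p = 0.049) and Prph (−0.10, 0.036) were called lower. The 4 higher genes of the first fit were among 14 members with at least 1000 counts, near the 25.1% of all such genes. Besides Uchl1 and Stmn2 the higher ones were Gng3, a G protein subunit (ratio 1.1, 1.05 to 1.16, adjusted p = 0.0039), and Nefl, the light neurofilament subunit (log2 0.11), whose call was lost without 5 of the 6 columns (adjusted p up to 0.18). The lower one, the sensory neuron factor Pou4f1 (161 and 121 counts), was also lost without 5 of the 6 columns (up to 0.23). Of 17 nociceptor genes Calca and Cd55 were called, and of 10 genes of touch and position neurons Spp1, with Ntrk3 lower as well in the plain-symbol fit (log2 −1.17, adjusted p = 0.036). Of 8 intermediate filament genes 1 was higher and 0 lower, and 0 and 2 in the plain-symbol fit. Cd55, a complement regulator of nonpeptidergic pain neurons, had 3.67, 5.14 and 6.6 CPM with shGpr151 and 11.5, 16.9 and 12.2 CPM with e5UTR, with no overlap. Its ratio of 2.63 (1.58 to 4.55) came from 21 and 60 counts, and its call (adjusted p = 0.0078) was lost without column 1 of shGpr151 or 2 of e5UTR (up to 0.077). Spp1 had a ratio of 1.2 (1.1 to 1.31, adjusted p = 0.0095) and lost its call without column 2 of shGpr151 or 3 of e5UTR (up to 0.085).

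Among 31 ion channel genes 1 was called higher and 0 lower, with a median log2 of −0.12, and none of these genes reached 1000 counts. Scn8a, a voltage-gated sodium channel of axons, had 3.67, 4.41 and 2.94 CPM against 8.11, 8.10 and 13.5 CPM. Its ratio was 2.70 (1.47 to 5.22, adjusted p = 0.023) on 15 and 44 counts, and the call was lost without any 1 shGpr151 column or e5UTR column 3 (up to 0.17). Of 31 synaptic vesicle genes Sncg, gamma-synuclein, was higher (ratio 1.08, 1.06 to 1.11, adjusted p = 3.3e-05) and Cplx1 lower (log2 −0.19, adjusted p = 0.047, lost without column 2 or 3 of either group with adjusted p up to 0.20).

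Cytoskeletal genes had calls in both directions. Of 48 actin genes 6 were higher and 4 lower, and 4 and 7 in the plain-symbol fit. Of the 18 members with at least 1000 counts 4 were higher and 3 lower, no more than the 25.1% and 24.1% of all such genes. Beside Actg1, the higher ones included Add1, an adducin that caps actin at the membrane, with 37.4, 34.5 and 30.8 CPM against 60.1, 57.4 and 54.1 CPM (ratio 1.67, 1.35 to 2.07, adjusted p = 0.00071). Every e5UTR column of Add1 was higher. The abundant Tmsb4x, an actin-sequestering thymosin, was higher by log2 0.10, and its relative Tmsb10 lower by a log2 of −0.05, a call lost without 5 of the 6 columns (adjusted p up to 0.15). Enah, an actin elongation factor of growth cones, was lower (ratio 0.812, 0.751 to 0.878, adjusted p = 0.00067). Limk1, a kinase that inactivates cofilin (ratio 0.616, 0.454 to 0.833), lost its call without shGpr151 column 3 or any 1 e5UTR column (up to 0.20) and Arpc5l without 5 of the 6 columns (up to 0.16). The lower calls in this list thus numbered 1 or 2 without any 1 column.

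Of 36 tubulin and microtubule genes 6 were called higher and 2 lower (3 and 4 in the plain-symbol fit). The 6 were among the 25 members with at least 1000 counts, near the 25.1% of all such genes. The 2 lower calls, Map1a and Map1lc3a, were each lost without 4 of the 6 columns (adjusted p up to 0.12 and 0.22). Tuba1a, the main neuronal alpha-tubulin, differed by a ratio of 1.05 (1.03 to 1.07), a call lost without column 3 of shGpr151 or 1 of e5UTR (up to 0.10). Motor proteins had 4 of 30 higher and 1 lower (4 and 2 in the plain-symbol fit). Of the 13 members with at least 1000 counts 3 were higher and 1 lower, beside 25.1% and 24.1% of all such genes. Dynll1 and Dynlrb1, light chains of the dynein motor that carries signals back to the cell body, stood at 572 and 971 CPM with shGpr151 and at 672 and 1128 CPM with e5UTR (ratios 1.18, 1.11 to 1.24, and 1.16, 1.11 to 1.21). The dynactin subunit Dctn3 had 1381 and 1774 counts (adjusted p = 0.0024). Kif5a, a kinesin of axonal transport, was higher by log2 0.37 and the dynein intermediate chain Dync1i2 lower by a log2 of −0.30, and these calls were lost without 3 and 4 of the 6 columns (up to 0.073 and 0.13).

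**Figure D3:**
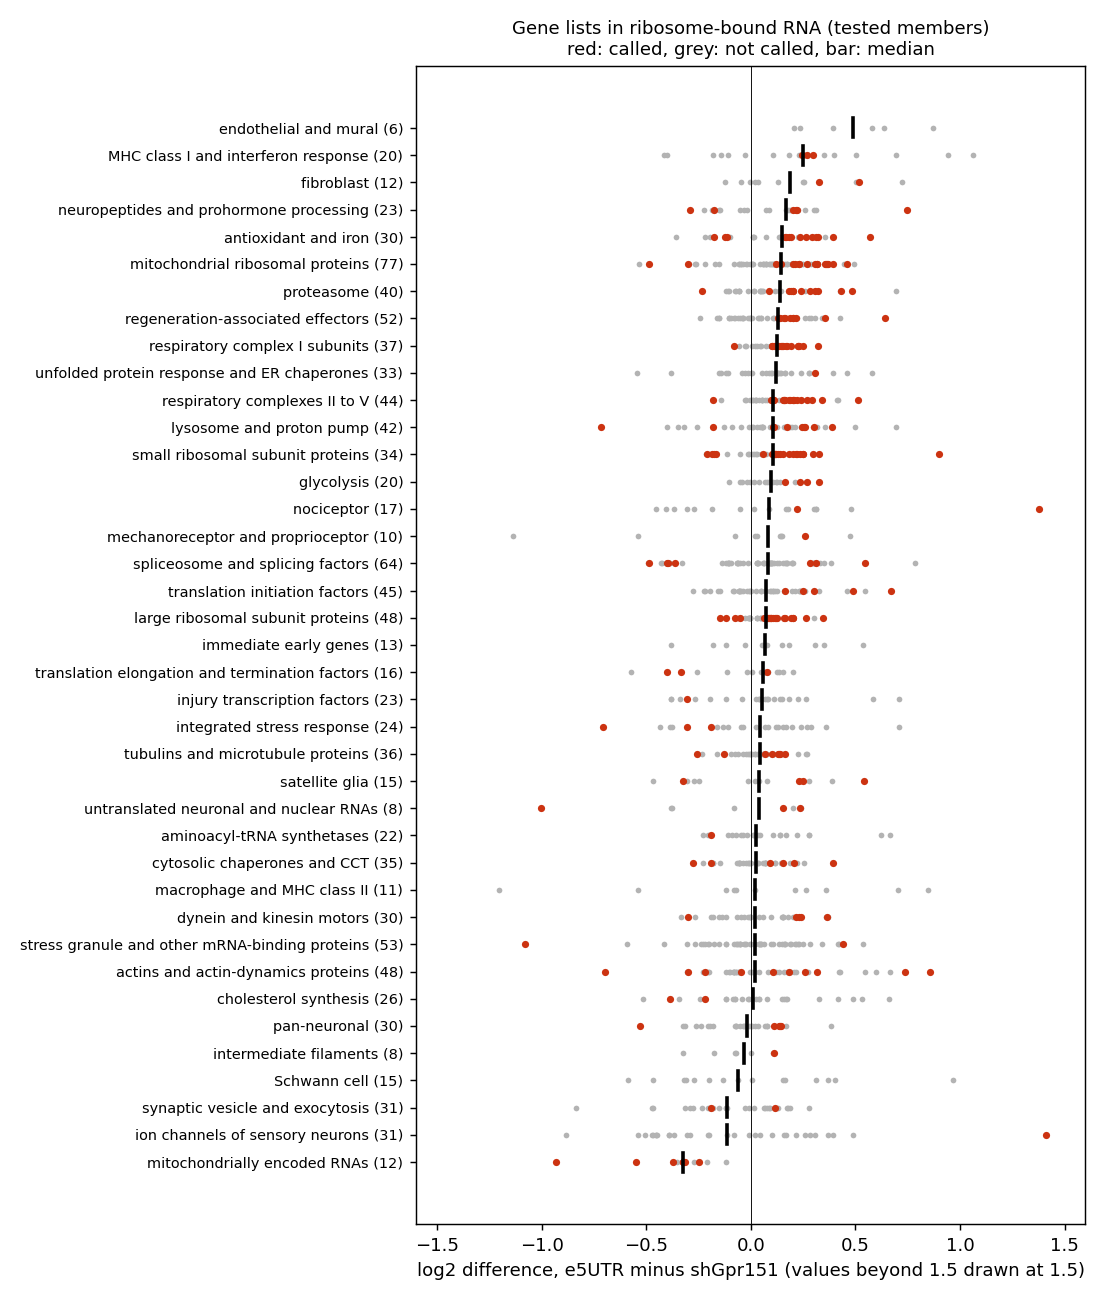
Log2 differences (horizontal axis) of the tested members of the gene lists, 1 row per list, called members coloured and the median marked. Mitochondrially encoded RNAs lie to the left of 0 as a group. Medians were above 0 for respiratory chain, proteasome and ribosomal protein genes, but not only for these. The highest medians were those of endothelial and mural (0.49, 6 genes tested), MHC class I and interferon (0.25) and fibroblast genes (0.19). Ion channel and synaptic vesicle genes had medians of −0.12 and −0.11.

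Ribosomal protein mRNAs carry a terminal oligopyrimidine start and are regulated together in translation. With e5UTR they did not move as 1 block. Of 48 tested large-subunit genes 19 were higher and 4 lower (median log2 0.07, with 13 and 7 in the plain-symbol fit), and of 34 small-subunit genes 19 were higher and 4 lower (0.11, with 16 and 4). Nearly all reach 1000 counts. Called higher were 18 of 32 such small-subunit genes and 19 of 47 large-subunit genes, beside 25.1% of all genes with at least 1000 counts. That share is not matched to these genes, which in the large subunit alone summed to 479957 and 533994 counts in the IP pools. Whether they exceed genes of like depth was not tested. Rps26 rose from 3380, 3410 and 3272 CPM to 4178, 4161 and 4025 CPM (ratio 1.23, 1.2 to 1.26, adjusted p = 9.4e-11). Rps27a, which is made as a fusion with ubiquitin, rose from 1968, 1951 and 1976 CPM to 2535, 2398 and 2450 CPM (1.25, 1.22 to 1.29, adjusted p = 2.1e-10). Fau, also a fusion with a ubiquitin-like protein, had a ratio of 1.17 (1.14 to 1.2). In all 3 every e5UTR column was above every shGpr151 column.

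The lower small-subunit genes were Rps29, Rps21 (ratio 0.892, 0.870 to 0.915, adjusted p = 1.5e-06), Rpsa (0.864, 0.825 to 0.905, adjusted p = 5.4e-05) and Rps28 (0.885, adjusted p = 0.037), the last of which lost its call without 4 of the 6 columns (up to 0.28). The lower large-subunit genes were Rpl38, Rplp1 (0.949, 0.928 to 0.970), Rpl41 (0.921, 0.90 to 0.944) and Rpl37 (log2 −0.05), and without shGpr151 column 1 only 2 of these 4 calls remained. Many ribosomal protein genes have processed pseudogenes of near-identical sequence, so their counts are uncertain where the counting could divide reads. Rps2, with the largest fold in the list, from 59.5, 65.3 and 64.6 CPM to 144, 102 and 107 CPM (ratio 1.87, 1.6 to 2.17), overlaps Snhg9 and is taken up with it below.

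Translation factors were mostly not called. Of 45 initiation factor genes 5 were higher and 0 lower (4 and 0 in the plain-symbol fit), and 2 to 4 were higher without any 1 column. Of the 15 members with at least 1000 counts 3 were higher, beside 25.1% of all such genes. Eif1 and Eif1b, close relatives that help the ribosome select start codons, rose from 1584 to 1775 CPM (ratio 1.12, 1.08 to 1.16, adjusted p = 2.6e-05) and from 502 to 619 CPM (1.23, 1.16 to 1.31, adjusted p = 2.1e-05). Eif3e, a subunit of the scaffold eIF3, had a ratio of 1.6 (1.22 to 2.09, adjusted p = 0.026), a call lost without column 1 or 3 of shGpr151 or 2 or 3 of e5UTR (up to 0.14). Eif4a2 and Eif4ebp1 were lost without 4 and 5 of the 6 columns (up to 0.15 and 0.23). Of 16 elongation and termination factor genes 1 was higher and 2 lower, and 0 and 3 in the plain-symbol fit. Eef1a2, the elongation factor form of mature neurons, had 1673 and 1376 counts and was lower (ratio 0.757, 0.704 to 0.813, log2 −0.40 ± 0.06, adjusted p = 8.2e-06). The widespread form Eef1a1 was higher by log2 0.08, a call lost without 5 of the 6 columns (up to 0.077), and the ribosome recycling factor Abce1 was lower by a log2 of −0.33, lost without 3 (up to 0.052). Of 22 aminoacyl-tRNA synthetase genes Nars was lower, from 960, 915 and 970 CPM to 846, 823 and 827 CPM (ratio 0.877, 0.839 to 0.918, adjusted p = 0.00024).

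The integrated stress response, in which a block on initiation raises Atf4 and its targets, had 24 tested genes with 0 called higher by edgeR or DESeq2 (2 at an unadjusted p under 0.05) and 3 lower: Atf4, Nars and Chac1. Chac1, an enzyme that degrades glutathione, fell from 31.6, 34.5 and 41.1 CPM to 26.3, 20.9 and 18.3 CPM, with no overlap (ratio 0.611, 0.468 to 0.796, adjusted p = 0.013), but the call was lost without column 3 of shGpr151 or 2 or 3 of e5UTR (up to 0.095). The list's median log2 was 0.05, so most members did not go with these 3. Among 33 genes of the unfolded protein response and ER chaperones 1 was called, the signal peptidase subunit Spcs1 (ratio 1.24, 1.17 to 1.32, adjusted p = 2.7e-05). Of 13 immediate early genes 0 were called by edgeR or DESeq2 and 0 had an unadjusted p under 0.05, and of 53 stress granule and other mRNA-binding proteins 2 (1 higher and 1 lower, and 1 and 2 in the plain-symbol fit). Those 2 were Pcbp2, higher by log2 0.44 (lost without column 3 of shGpr151 or 1 of e5UTR, adjusted p up to 0.071), and Pura, a neuronal RNA transport protein at 47 and 24 counts, lower by a log2 of −1.08 and lost without any 1 column (up to 0.29). In the order given, 4, 9, 2 and 4 members of these lists had at least 1000 counts. Of all genes tested 12% were called, and of those under 1000 counts 2.22% were higher and 3.76% lower. Few calls at such depth do not show equal levels.

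Nuclear genes of the respiratory chain were higher in large number and by small factors. Of 37 complex I genes 20 were higher and 1 lower (median log2 0.13, with 13 higher in the plain-symbol fit), and of 44 genes of complexes II to V 21 were higher and 1 lower (0.11, with 19 higher). Among members with at least 1000 counts these were 20 of 33 and 21 of 37, beside 25.1% over all such genes. Complexes II to V summed to 318703 and 368698 counts in the IP pools, so that share is not matched to their depth. An excess over genes of like depth was not tested. Ndufa4, a subunit of cytochrome c oxidase, rose from 4949, 4845 and 4867 CPM to 5669, 5586 and 5631 CPM (ratio 1.15, 1.13 to 1.17, adjusted p = 1.0e-09). Cox6b1 (1.14, 1.11 to 1.16) and Cox4i1 (1.16, 1.13 to 1.2) of the same complex were likewise higher in every e5UTR column. The largest ratios among the genes with calls that held without any 1 column, named after their values were seen, were those of Cox7a2l (1.43, 1.26 to 1.62), Atp5f1 (1.26, 1.16 to 1.38) and the complex I gene Ndufc2 (1.25, 1.18 to 1.32). The lower ones were Atp5k and Ndufb1-ps (log2 −0.08, lost without column 2 of either group with adjusted p up to 0.073). Without e5UTR column 2 complex I had 13 genes higher, and without the others up to 17, while complexes II to V had 20 to 23.

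Mitochondrial ribosomal proteins, also made from nuclear genes, had 16 of 77 higher and 2 lower (median log2 0.14), but without any 1 column 8 to 10 were higher, in the plain-symbol fit 10 and by DESeq2 4. Of the 25 members with at least 1000 counts 12 were higher and 2 lower in the first fit, beside 25.1% and 24.1% of all such genes. Mrps33 had 1717 and 2191 counts (adjusted p = 0.0010). Mrps26 was lower, with 1164 and 902 counts (ratio 0.713, 0.653 to 0.779, adjusted p = 0.00012), and Mrpl13 was lower by a log2 of −0.30, lost without e5UTR column 2 (adjusted p = 0.062).

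RNAs encoded by the mitochondrial genome went the other way. They are translated inside mitochondria on ribosomes without RPL22, so in an anti-HA pull-down they mark RNA that does not come from tagged ribosomes. Of 12 tested, 0 were higher and 7 lower by edgeR, 9 lower in the plain-symbol fit, 5 lower by DESeq2, 11 lower at an unadjusted p under 0.05, and all 12 log2 differences were below 0 (−0.93 to −0.12, median −0.32). Their summed level was 2591 to 2621 CPM in the shGpr151 columns and 2009 to 2165 CPM in the e5UTR columns, 80.3% of shGpr151, against 23330 and 22760 CPM in the input pools. mt-Atp6, a subunit of the ATP synthase, fell from 195, 197 and 208 CPM to 119, 127 and 164 CPM (ratio 0.683, 0.614 to 0.759, adjusted p = 0.00011), and mt-Co2 from 368, 374 and 363 CPM to 266, 278 and 310 CPM (0.772, 0.716 to 0.832, adjusted p = 5.1e-05). The large ribosomal RNA mt-Rnr2 fell from 608, 626 and 608 CPM to 490, 498 and 485 CPM (0.799, 0.754 to 0.847, adjusted p = 2.0e-06). None of these columns overlapped between groups. mt-Nd5 had the lowest ratio (0.524, 0.392 to 0.697) on 137 and 78 counts, and its call was lost without column 3 of either group (up to 0.060).

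The other lower RNAs of this set were mt-Rnr1 (ratio 0.805, adjusted p = 0.0024), mt-Co3 (0.843, lost without shGpr151 column 2, adjusted p = 0.053) and mt-Cytb (0.798, lost without 5 of the 6 columns, up to 0.15). mt-Co1 was not called (0.921, 0.856 to 0.991, adjusted p = 0.18), nor were mt-Nd1, mt-Nd2, mt-Nd4 and mt-Nd6. The part that unbound RNA had in other differences was not tested.

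Other RNAs that ribosomes do not translate, or hardly do, varied. Malat1, an abundant noncoding RNA of the nucleus, fell from 60.2, 69.8 and 44.8 CPM to 25.7, 33.1 and 28.4 CPM, with no overlap (ratio 0.499, 0.399 to 0.621, log2 −1.0 ± 0.17, adjusted p = 0.00015), and was called at an assumed variation of 10% (adjusted p = 0.028). Bc1, a neuronal RNA made by RNA polymerase III, had 133 and 111 counts against 12763 and 10236 in input and was not called in IP (ratio 0.768, 0.592 to 0.996, adjusted p = 0.23). Gas5, a snoRNA host transcript, was higher, from 1045, 1004 and 1070 CPM to 1142, 1216 and 1116 CPM (1.11, 1.07 to 1.16, adjusted p = 0.0021), and so was Snhg1 (1.18), whose call was lost without 5 of the 6 columns (up to 0.21). These 3 were the calls among the 8 tested members of this list, with 1 higher and 2 lower in the plain-symbol fit.

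Genes of protein degradation and oxidative defence had more calls higher than lower. Of 40 proteasome genes 11 were higher and 1 lower (median log2 0.14, with 10 and 1 in the plain-symbol fit), 9 of the 11 among 25 members with at least 1000 counts. The assembly factor Pomp rose from 737, 689 and 671 CPM to 858, 826 and 907 CPM (ratio 1.24, 1.18 to 1.30, adjusted p = 5.2e-06) and the catalytic subunit Psmb6 from 934, 948 and 959 CPM to 1160, 1055 and 1057 CPM (1.15, 1.1 to 1.2, adjusted p = 0.00019). The lower one, the ATPase subunit Psmc1 (log2 −0.23), lost its call without shGpr151 column 2 (adjusted p = 0.058). Of 30 antioxidant and iron genes 11 were higher and 3 lower (0.15, with 8 and 3), 10 of the 11 among 16 members of that depth. Of all genes of that depth 25.1% were higher. With Prdx1 these included Txn1, thioredoxin, from 2494, 2587 and 2561 CPM to 2897, 2867 and 2923 CPM (1.14, 1.11 to 1.17, adjusted p = 3.0e-07), the lipid peroxide reductase Gpx4 (1.25, 1.19 to 1.31) and the ferritin chains Ftl1 (1.22, 1.17 to 1.28) and Fth1 (1.14, 1.1 to 1.19). The lower ones were Sod1, Mt1 and Srxn1 (log2 −0.12, −0.11 and −0.18), each lost without 1 or 2 columns: Sod1 without e5UTR column 2 (0.051), Mt1 without column 3 of either group (up to 0.084) and Srxn1 without column 3 of shGpr151 or 1 of e5UTR (up to 0.12).

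Chaperones had 4 of 35 higher and 2 lower (4 and 3 in the plain-symbol fit), and the 4 were among 23 members with at least 1000 counts, a smaller share than the 25.1% of all such genes. Cryab, a small heat shock protein, had 2204 and 3148 counts (ratio 1.31, 1.24 to 1.39, adjusted p = 5.5e-08), Hspa8, the constitutive Hsp70, rose by 1.06 (1.05 to 1.08, adjusted p = 2.6e-05), and Hspe1 and Hsp90aa1 by log2 0.21 and 0.15. The Hsp70 partner St13 was lower (0.825, 0.778 to 0.875, adjusted p = 7.3e-05), as was Cct8 by a log2 of −0.19, lost without 4 of the 6 columns (up to 0.13). Of 20 glycolysis genes 4 were higher and 0 lower, the 4 among 12 members with at least 1000 counts. Pkm, pyruvate kinase, rose from 469, 463 and 467 CPM to 555, 592 and 606 CPM (1.25, 1.18 to 1.33, adjusted p = 5.8e-06) and Gapdh from 1780 to 1997 CPM (1.12, 1.09 to 1.16, adjusted p = 0.00015). The call of Eno1 was lost without column 3 of either group (up to 0.12) and that of Pfkp without 5 of the 6 columns (up to 0.18). Of 42 lysosome and proton pump genes 8 were higher and 2 lower (6 and 1 in the plain-symbol fit), among them the pump subunit Atp6v0c (1.23, 1.17 to 1.30, adjusted p = 3.2e-06) and, lower, the protease gene Ctsd (0.883, 0.850 to 0.918, adjusted p = 0.00015). Gm2a was lower by a log2 of −0.72, lost without any 1 column (up to 0.15). Of the 16 lysosome and proton pump genes with at least 1000 counts 7 were higher and 1 lower. In cholesterol synthesis 0 of 26 were higher and 2 lower (3 lower in the plain-symbol fit). The 2 were Srebf2 and Msmo1 (log2 −0.22 and −0.39), both lost without column 1 of shGpr151 or 2 of e5UTR (up to 0.065 and 0.055).

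Splicing factors gave 3 of 64 higher and 4 lower (2 and 4 in the plain-symbol fit). Of the 17 members with at least 1000 counts 1 was higher and 4 lower, beside 25.1% and 24.1% of all such genes. The lower ones were the U1 protein Snrnp70 (919 and 712 counts, ratio 0.713, 0.646 to 0.787, adjusted p = 8.5e-05), Luc7l2 (0.761, 0.711 to 0.814, adjusted p = 2.6e-06), Rbm25 (0.757, 0.669 to 0.857, adjusted p = 0.0024) and Rbm5, which lost its call without e5UTR column 2 (0.064). The higher ones, Srrm2, Phf5a and Sf3b5 (log2 0.55, 0.31 and 0.28), were lost without 2, 5 and 2 of the 6 columns (up to 0.067, 0.15 and 0.077).

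Genes of other ganglion cells had calls in some lists and none in others, beside 12% of all genes tested. Few members reached 1000 counts: 2 Schwann cell, 0 macrophage and MHC class II and 0 endothelial and mural genes. Of the fibroblast, satellite glia and MHC class I and interferon lists 3 genes each did, with 2, 2 and 3 of them higher. Of all genes of that depth 25.1% were higher. Of 15 Schwann cell, 11 macrophage and MHC class II and 6 endothelial and mural genes 0 were called in either direction by edgeR or DESeq2, with 2, 3 and 3 at an unadjusted p under 0.05. The plain-symbol fit called 1 of them, Csf1r of macrophages, lower (log2 −1.24, adjusted p = 0.028). All 6 endothelial and mural genes were above 0 (log2 0.21 to 0.87, median 0.49), and their summed level was 122 to 172 CPM with shGpr151 and 177 to 198 CPM with e5UTR. Fibroblast genes had 2 of 12 higher. Mgp, a matrix protein that inhibits calcification, rose from 178, 181 and 189 CPM to 257, 263 and 264 CPM (ratio 1.43, 1.30 to 1.57, adjusted p = 2.3e-06), and Apod by 1.25 (1.12 to 1.40), a call lost without column 2 of either group or e5UTR column 3 (up to 0.16). Of 15 satellite glia genes 3 were higher and 1 lower (2 and 2 in the plain-symbol fit): beside Dbi, Fabp7 (266 and 421 counts, 1.46, 1.25 to 1.70, adjusted p = 0.0020) and Sparc (1.17, lost without column 2 or 3 of either group, up to 0.28) were higher, and Apoe was lower (0.799, lost without column 1 or 3 of shGpr151 or 2 of e5UTR, up to 0.10). MHC class I and interferon genes had 3 of 20 higher and 0 lower: B2m, the light chain of MHC class I, from 460, 460 and 450 CPM to 571, 560 and 554 CPM (1.23, 1.16 to 1.31, adjusted p = 1.1e-05), Ifitm3 (1.2, 1.11 to 1.31) and Ifi27 (1.19, 1.1 to 1.27). The part of such cells in the other differences was not tested.

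Some of the largest differences sat in pairs of genes between which the authors' counting could divide reads, which was not tested. Taf9, a subunit of the general transcription factor TFIID, had 0 counts in all shGpr151 columns and 31.1, 29.0 and 38.5 CPM with e5UTR, at least 44.8-fold higher against a floor of 3 counts per pool. Its overlapping neighbour Ak6 went from 332 to 282 counts and was not called (adjusted p = 0.071), and their sum went from 332 to 428 counts, a ratio of 1.17 by library total. The symbol Ptp4a1, a protein tyrosine phosphatase, belongs to 2 gene IDs. ENSMUSG00000026064 went from 339 counts to 0 (at least 123-fold lower) and ENSMUSG00000117310 from 73 to 423, while their sum was 412 and 423, a ratio of 0.935 by library total. The column values of ENSMUSG00000117310 were 53.6, 0 and 0 CPM with shGpr151, so this ID also varied between columns of 1 pool.

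Other pairs had differences of opposite sign too. Snhg9, a snoRNA host, fell from 374, 397 and 379 CPM to 249, 255 and 241 CPM (ratio 0.647, 0.599 to 0.70, adjusted p = 6.1e-09), while the overlapping Rps2 rose from 258 to 523 counts. Their sum was 1826 and 1626 counts, 0.811 by library total. Rpl10 rose from 694, 689 and 704 CPM to 894, 878 and 881 CPM (1.27, 1.21 to 1.33), while its pseudogene Rpl10-ps3 went from 4565 to 4085 counts (adjusted p = 4.1e-07), and the sum differed by a ratio of 0.985. Lbhd1 rose from 287 to 567 counts and the overlapping 1810009A15Rik fell from 263 to 139, with a sum of 550 and 706 (1.17). Where members differ in opposite directions, their sum must differ by less than the member with the larger change. The sums therefore do not show whether reads were divided within a pair. Single values of these genes are uncertain because the counting could divide reads between them.

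**Figure D4:**
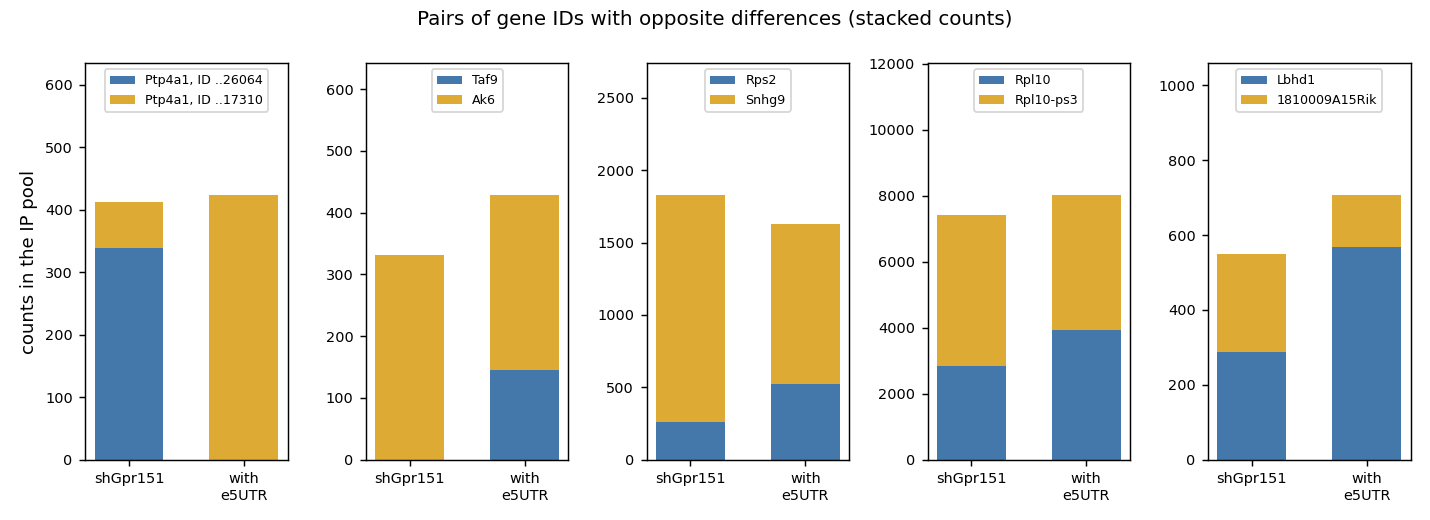
Pooled counts of 5 pairs of gene IDs in IP shGpr151 and IP e5UTR, with both members stacked to their sum. In the Ptp4a1 pair one ID is lower and the other higher with e5UTR, and the sums are 412 and 423.

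The last question was whether these differences were also present in total RNA. The input pools received the same viruses, held 2954427 and 2928926 counts, and served here only as a reference. The difference in IP minus that in input, the interaction in a model of all 12 columns, was called in 413 of 8085 genes (5.11%), 127 above and 286 below 0. Ubb had 3002 and 2935 counts in input, a log2 difference of −0.03, and its interaction was 0.65 (adjusted p = 5.4e-11). Prdx1 (interaction 0.59, adjusted p = 2.8e-08) and Actg1 (0.76, adjusted p = 0.00029) likewise stood apart from input, where their log2 differences were −0.02 and 0.10. Among lower genes, mt-Tq had an interaction of −0.87 (adjusted p = 2.8e-11), Malat1 of −0.86 (adjusted p = 0.0016) and mt-Atp6 of −0.52 (adjusted p = 0.00018). In these 6 genes the difference in IP was thus not matched by one of like size in total RNA.

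For other genes the difference in IP and that in input were not called apart. In Atf4, with 130 and 106 counts in input, the 2 estimates nearly coincided, at a log2 of −0.29 in input and −0.31 in IP (interaction −0.02, adjusted p = 0.98). Gfra1, with 29 and 35 input counts, had an interaction of 0.37 (adjusted p = 0.75) and Calca, with 916 and 958, of 0.15 (adjusted p = 0.41). A p over the threshold does not show that IP and input moved alike in these genes. Of the regeneration effectors 5 of 50 tested had a called interaction, among them Gal (0.24, adjusted p = 0.0076), Npy (0.32, adjusted p = 0.015), Lgals1 (0.17, adjusted p = 3.8e-05) and Uchl1 (0.18, adjusted p = 0.0015). The counts were 18 of 34 small-subunit and 11 of 48 large-subunit ribosomal genes, 10 of 44 genes of complexes II to V, 5 of 37 of complex I and 6 of 12 mitochondrially encoded RNAs. Most members of these 5 lists had at least 1000 counts in IP. The 5.11% over all genes is not matched to that depth, and no interaction share for abundant genes was computed. Whether these counts exceed those of other abundant genes was thus not tested.

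**Figure D5:**
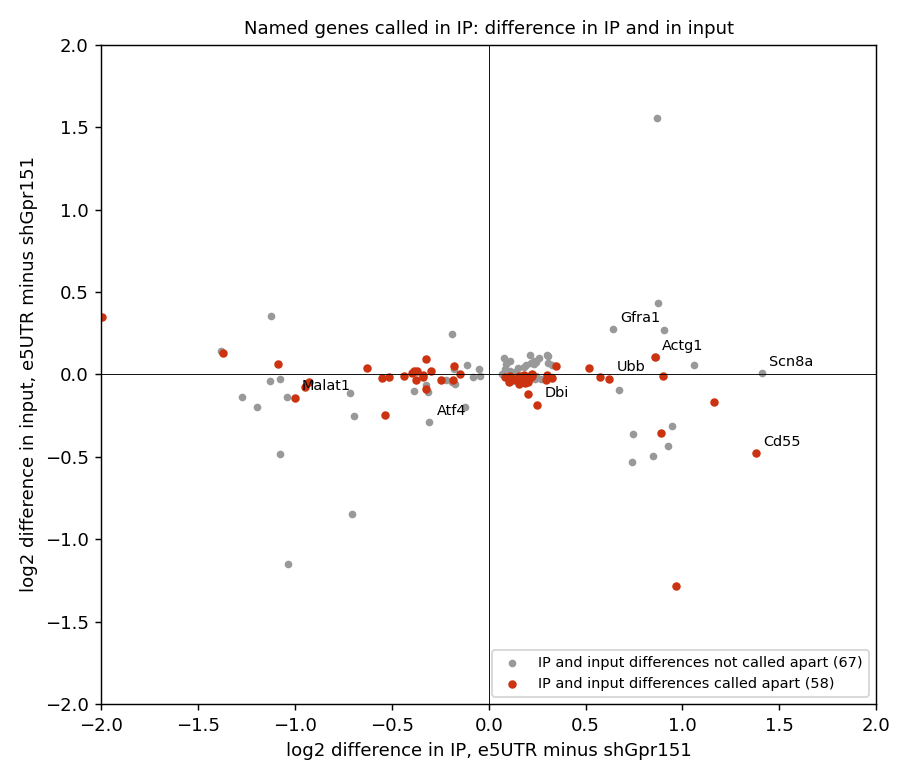
Log2 e5UTR difference in input (vertical axis) against that in IP (horizontal axis) for 125 of the 131 named genes called in IP, coloured where the interaction was called (58 genes) or not (67). The 6 genes left out lie beyond the axes, and most points spread along the horizontal axis, close to 0 in input.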

How the data were processed

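The authors deposited 1 table of estimated counts, given as whole numbers, for 14675 Ensembl gene IDs in 12 columns. The submitters' processing notes name minimap2, Salmon, GRCm39 and mm39, without versions or roles. No annotation release, filter or rule for reads that match several genes is stated there. The lowest gene total over 12 columns was 13 counts. Symbols were found for 13191 IDs (89.9%), and a GRCm38 gene table served only to find overlapping neighbours, so no coordinates are given. Genes and lists were chosen with earlier results of these data known.

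The 6 IP columns were fitted with edgeR 4.0.16 (R 4.3.3), quasi-likelihood test, TMM scaling (factors 0.993 to 1.008) and filterByExpr (minimum count 10, minimum total 15), which left 8023 genes, with Benjamini-Hochberg adjustment at 0.05. CPM are counts per 1000000 counts of tested genes after TMM scaling, with each pool's scaled size shared among its columns by their totals, and sums over a list are per 1000000 counts of all genes. The interaction used all 12 columns. Named genes were the 15 with the smallest p and the 15 with the largest difference in each direction (at least 100 counts in the higher pool), list members past 1.5-fold or otherwise up to 4 of the most abundant, and a few fixed genes. Called list members outside this rule were named after their values were seen. The fixed lists numbered 40. On simulated counts of 8009 genes for this comparison the test recovered 22% of 1.2-fold, 64% of 1.5-fold and 96% of 2-fold changes, with 11 false calls. The simulation assumed a coefficient of variation of 0.02, near the spread between columns. Its rates therefore apply to a comparison of pools of reads and not of conditions. Alternatives were DESeq2 1.42.0, limma-voom (limma 3.58.1), other scalings and filters, a replicate block, each column left out, the plain-symbol fit added after seeing the data, and assumed biological variation.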

Additional observations from a re-analysis of the deposited data

Results flagged for a closer look

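In 413 of 8085 genes the e5UTR difference in ribosome-bound RNA differed from the e5UTR difference in total RNA by edgeR's test of the interaction. The 62 gene IDs among the genes named by the fixed rule are given here with the interaction, the log2 difference in IP minus that in input. The pools are single samples, so each value compares 4 pools of reads.

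Among genes higher in IP, the interaction was 0.65 for Ubb, 0.59 for Prdx1, 0.76 for Actg1 and 0.44 for Dbi. Dbi alone of these 4 was called in input, where it was lower. In ribosomal genes it was 0.33 for Rps26, 0.35 for Rps27a, 0.22 for Fau, 0.15 for Rps23, 0.14 for Rps19, 0.91 for Rps2, 0.30 for Rpl10, 0.10 for Rpl35 and 2.25 for the pseudogene Rpl36-ps12. In respiratory genes it was 0.24 for Ndufa4, 0.22 for Cox4i1, 0.19 for Cox6b1 and 0.12 for Cox6c. Genes of neurons and axon growth had 0.17 for Lgals1, 0.18 for Uchl1, 0.24 for Gal, 0.32 for Npy, 0.14 for Sncg and 1.85 for Cd55. The remaining genes above 0 were S100a10 (0.24), Gm17494 (0.19), Txn1 (0.24), Eif1 (0.20), B2m (0.31), Gas5 (0.22), Psmb6 (0.26), Gapdh (0.21), Mgp (0.48), Brip1os (1.33) and Arl2bp (1.24).

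Among genes lower in IP, mitochondrial RNAs had an interaction of −0.87 for mt-Tq, −0.29 for mt-Ts1, −0.52 for mt-Atp6, −0.23 for mt-Rnr2, −0.33 for mt-Co2, −0.21 for mt-Co3, −0.88 for mt-Nd5 and −0.37 for mt-Nd4, the last of which was not called in IP itself. Of RNAs more abundant in input than in IP, the interaction was −0.39 for Zfp410, −0.33 for Brd8, −0.40 for Eapp, −0.40 for Nanog, −0.43 for Ttf1, −0.31 for Nlrc3, −0.32 for Unc13d and −0.50 for Gfod2. The interaction was −0.86 for Malat1, −0.66 for Snhg9, −0.23 for Atp5k, −0.15 for Rpl38, −0.15 for Rps29, −0.42 for Apoe, −1.14 for Olfr1369-ps1, −1.5 for ENSMUSG00000138124 and −2.34 for ENSMUSG00000126127.

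In 3 gene IDs of pairs with opposite differences the interaction was 8.02 for Taf9, −11.34 for Ptp4a1 (ENSMUSG00000026064) and 10.56 for Ptp4a1 (ENSMUSG00000117310). These come from counts of 0 in a pool and are not sizes.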

How the results depend on the processing

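The 962 calls in IP (433 higher, 529 lower, 263 of at least 1.5-fold) became 509 with DESeq2 (215 higher, 294 lower, 63 of at least 1.5-fold). On the pooled counts with an assumed biological coefficient of variation of 0.1 they were 36 (10, 26 and 36), with 0.2 they were 9 (3, 6 and 9) and with 0.4 they were 3 (1, 2 and 3). All calls shared with the first fit had its direction: 509 of DESeq2's 509 and 35 of the 36. Left out 1 at a time, the columns gave 702 to 784 calls (291 to 335 higher, 397 to 449 lower, 194 to 218 of at least 1.5-fold), of which 657 to 721 were shared with the 962, and 106 to 116 of the 131 called named genes stayed called. The counts stayed within 1.5 times with other scalings (960 and 965), limma-voom (916), other filters (735 and 977), all 12 columns in 1 fit (884) and the plain-symbol fit (690). The interaction gave 337 to 418 calls without any 1 column, 381 with limma-voom and 419 by library totals. No value of a named gene that was called changed direction in these alternatives.

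Columns of the same number did not behave as pairs: their deviations from the group means correlated at −0.17, −0.29 and −0.05, and no column correlated best with its own number. Between columns of unlike number the correlations ran from −0.11 to 0.27. These values do not settle how the columns were made. With the replicate number as a block 883 genes were called (390 higher, 493 lower, 235 of at least 1.5-fold), and the interaction called 396. Depth limits small differences, even at a simulated coefficient of variation of 0.02, where 22% of 1.2-fold changes were recovered. Of genes under 1000 counts 2.22% were called higher and 3.76% lower, beside 25.1% and 24.1% of the others.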
